A study of Mus musculus with 10 samples.

Results

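Of the 69418 chromatin regions that CUT&Tag gave in mouse neural stem and progenitor cells (NSPCs), 15632 (22.5%) lie between genes and within 50 kb of the nearest transcription start site (TSS). They were taken by the authors' own annotation, as every region annotated as distal intergenic whose distance to the TSS was at most 50 kb on either side. Here they are called the intergenic members. The distance ran from 3002 to 49997 bp, since the annotation counts nearer regions as promoters. The member nearest the 50 kb limit, beside Serpini2, had 12 and 12 reads in WT and 13 and 23 reads in KO, and the first intergenic region past it, at 50005 bp from Gm48336, had 19 and 14 reads in WT and 25 and 28 reads in KO.

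Chromatin between genes holds enhancers, short stretches that bind transcription factors and can act on a promoter at some distance, and it also holds repeats and tandemly duplicated gene families. CUT&Tag uses an antibody to bring a transposase to a chromatin feature, where it cuts the DNA and adds sequencing adapters, so the reads pile up where the feature lies. The nearest gene is an assignment by position and does not show which gene a region acts on. The cells were wild type (WT, 2 libraries) or labelled Mina53-KO (KO, 2 libraries), with the treatment label "non" in both. Mina53, now named Riox2, belongs to the JmjC-domain proteins, and the study title assigns it an activity on arginine-methylated histone H4. RNA sequencing covered 3 WT and 3 KO libraries of cells with the same labels. The CUT&Tag labels name both brain tissue and a cell line called NSPCs. The labels give no antibody, spike-in, strain, age, brain region or way in which the KO was made, and they do not say that libraries came from separate cultures or animals, and each p-value measures only the spread between these libraries.

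The 4 CUT&Tag libraries, WT 1, WT 2, KO 1 and KO 2, held 3125267, 2913959, 4038765 and 3369232 reads in regions, and the 6 RNA libraries held 19923010 to 25939376 counts. Levels below are CPM values, counts scaled to a common library total, for CUT&Tag over the reads in regions and after TMM scaling. In RNA, Riox2 measured 19.9, 17.2 and 18.5 CPM in WT and 3.26, 3.78 and 3.69 CPM in KO, lower in each library labelled KO (log2 fold change -2.37 ± 0.15 (SE), edgeR adjusted p = 0.000324). RNA of the 32 neural stem and radial glia markers summed to 12144 to 12772 CPM in WT and 13772 to 13886 CPM in KO. The 10 microglia markers summed to 1.54 to 1.68 CPM in WT and 1.54 to 1.87 CPM in KO, and Aif1, one of them, was at 0 in all 3 WT libraries and in 2 of 3 KO libraries. Neuron markers summed to 847 to 1003 CPM in WT and 1112 to 1299 CPM in KO, and oligodendrocyte lineage markers to 2665 to 4149 CPM and 2615 to 3862 CPM. Intermediate progenitor markers summed to 497 to 515 CPM in WT and 669.7 to 711 CPM in KO, astrocyte markers to 3544 to 4582 CPM in WT and 3083 to 3683 CPM in KO, endothelial and pericyte markers to 23.6 to 31.98 CPM in WT and 55.6 to 63.03 CPM in KO, and fibroblast and meningeal markers to 30.5 to 36.2 CPM in WT and 17.98 to 21.2 CPM in KO. Of these sums, the neural stem, intermediate progenitor, neuron and endothelial ones were higher in KO without overlap and the fibroblast one lower, while the astrocyte, oligodendrocyte and microglia ones overlapped. Single genes did not all follow their sum. By edgeR, 3 genes of the neural stem list rose and 3 fell, where 1.77% of all genes tested rose and 1.66% fell. Vim of that list had means of 1987 CPM in WT and 3216 CPM in KO, and Slc1a3 had 2331 CPM and 1681 CPM. In the fibroblast list 1 gene rose and 2 fell. In the intermediate progenitor and neuron lists 5 and 4 rose and 0 fell. Of the astrocyte list 0 genes rose and 3 fell, although its sums overlapped. Of the oligodendrocyte lineage list 1 rose and 1 fell, and of the endothelial and pericyte list 1 rose and 0 fell. In such bulk samples, fewer cells of a type and less RNA per cell cannot be told apart.

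The intergenic members were short and mostly weak. Their median length was 282 bp (200 to 2037 bp), and the median member held 31, 29, 42 and 35 reads in WT 1, WT 2, KO 1 and KO 2. More of them lay upstream of the nearest start (9116, 58.3%) than downstream (6516). Per kb they thinned out with distance, and the bins given here are of unequal width. The counts were 1505 from 3 to 5 kb, 3600 from 5 to 10 kb and 4760 from 10 to 20 kb. Another 2847 lay from 20 to 30 kb and 2920 from 30 to 50 kb. The signal was a little lower farther out, from a median of 10.7, 10.7, 10.7 and 10.96 CPM within 5 kb to 9.37, 8.99, 9.26 and 9.48 CPM from 30 to 50 kb. All 4 libraries showed this, and within each distance bin the libraries differed by less than 1 CPM. Regions within 1 kb of a TSS, for comparison, had medians of 14.2, 14.5, 13.2 and 13.3 CPM and a median length of 330 bp.

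**Figure D1:**
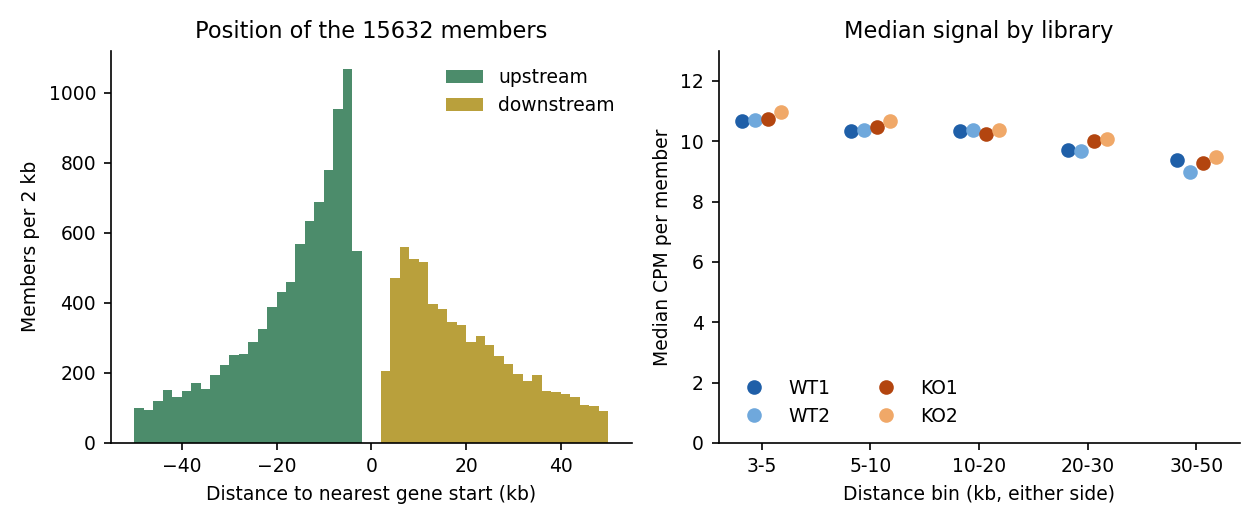
Left, number of intergenic members per 2 kb of signed distance to the nearest gene start (kb), coloured by side. Right, median CPM per member in each of the 4 libraries by distance bin (kb), each point 1 library; the medians run from 10.7 to 10.96 CPM nearest the start and from 8.99 to 9.48 CPM at 30 to 50 kb.

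Most members were called as a peak in few libraries. The authors marked a peak in 1 library only for 10231 members (65.4%) and in all 4 libraries for 1308 (8.37%). Over all regions these shares were 63.5% and 10.0%, and for intergenic regions beyond 50 kb they were 71.5% and 6.16%, while 19.7% of regions within 1 kb of a TSS had a peak in all 4. The KO libraries, which held more region reads, had more of the calls: 27.7% and 30.2% of members were called in WT 1 and WT 2, and 58.6% and 43.9% in KO 1 and KO 2, close to the 30.1%, 32.9%, 58.6% and 44.4% of all regions. Members called in 1 library had a median of 8.06 CPM, and those called in all 4 had a median of 26.1 CPM. Members called in KO 1 alone had a median log2 fold change of 0.23, and members called in WT 1 alone had one of -0.45, so the direction of a weak member moved with the library in which its peak was called; the part of that selection in the results below was not tested.

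Member reads were shared over many regions, with a few very strong ones. The 10 members with the most reads held 3.94%, 3.52%, 3.35% and 3.31% of all member reads in WT 1, WT 2, KO 1 and KO 2, and the strongest 1000 held 24.6%, 24.1%, 23.0% and 22.9%. The strongest was chr17:13524818-13526552 (GRCm39), 24458 bp upstream of Gm36684, a predicted gene, with 7495 and 4825 reads in the WT libraries and 8940 and 5962 reads in the KO libraries. At 2422 and 1668 CPM in WT and 2179 and 1766 CPM in KO, its libraries overlapped between genotypes and each genotype's pair differed by more than the genotypes did (log2 fold change -0.05 ± 0.09 (SE)). chr11:108902372-108903043, 3895 bp downstream of Gm11668, measured 894 and 764 CPM in WT and 881 and 865 CPM in KO. chr3:5925299-5925986, 20115 bp upstream of Gm55270, measured 555 and 508 CPM in WT and 541 and 594 CPM in KO. In both of these the genotypes overlapped. JH584304.1:39346-40805, on an unplaced scaffold beside ENSMUSG00000095041, measured 502 and 424 CPM in WT and 441 and 394 CPM in KO, again with overlapping genotypes.

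Of the 10 strongest members, 5 sat at the assembled starts of chromosomes 9, 12 and 14. Of these, 3 had Mir101c as nearest gene, a microRNA gene whose RNA was at 0 in all 6 poly(A) libraries, which do not capture mature microRNAs. Its mature sequence in RefSeq (GRCm38.p6 table) is given to identify the gene with the most members, with the seed, bases 2 to 8, in capitals.
mmu-miR-101c: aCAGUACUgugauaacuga

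The strongest of these, chr9:3023961-3024742, 14001 bp downstream of Mir101c, had 3890 and 3701 reads in the WT libraries and 3671 and 3590 reads in the KO libraries. The raw reads were thus nearly level while the KO libraries held more region reads in all, and the scaled values were 1257 and 1279.8 CPM in WT and 895 and 1063 CPM in KO. Both KO libraries lay below both WT libraries, and the fitted log2 fold change of -0.37 ± 0.10 (SE) did not pass the test (edgeR adjusted p = 0.267). chr9:2999973-3000999 measured 896 and 926 CPM in WT and 664 and 791 CPM in KO, and chr9:3001959-3002326 measured 365 and 353 CPM in WT and 244 and 286 CPM in KO. chr12:3159773-3160214 on chromosome 12, 27106 bp downstream of the predicted gene Gm9075, measured 361 and 349.9 CPM in WT and 252 and 307 CPM in KO. In each of these 3, too, the KO libraries were the lower pair.

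The first comparison asked whether single intergenic members differed between KO and WT. Of 15572 members with enough reads to test, 2 fell in KO and 0 rose at an edgeR adjusted p under 0.05. Over all 69209 regions tested, 0.00433% were called lower and 0.00289% called higher. Both fallen members lie on chromosome 8, and both are near tandemly duplicated gene families. At an unadjusted p under 0.05, 291 members were higher and 438 lower, 1.87% and 2.81% of the members tested, where 1.70% and 3.65% of all regions were; together these were 4.68% of members against 5.35% of all regions, near the background. DESeq2 called 1 member lower and 0 higher, and 346 members passed its unadjusted threshold.

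The first fallen member is chr8:19757117-19757965 (GRCm39, 849 bp), 3756 bp downstream of the start of Gm7760, a pseudogene. It held 392 and 396 reads in the WT libraries and 290 and 254 reads in the KO libraries, or 127 and 137 CPM in WT and 70.7 and 75.2 CPM in KO. The KO libraries had fewer reads here although they held more region reads in all, and the genotypes did not overlap. The log2 fold change was -0.85 ± 0.14 (SE), with an edgeR adjusted p of 4.5e-05, and the authors called a peak there in all 4 libraries. The second is chr8:21486866-21487212 (347 bp), 28349 bp upstream of Defa21, which encodes an alpha-defensin, an antimicrobial peptide of intestinal Paneth cells. It held 86 and 61 reads in the WT libraries and 43 and 28 reads in the KO libraries, or 27.8 and 21.1 CPM in WT and 10.5 and 8.29 CPM in KO, again without overlap (log2 fold change -1.37 ± 0.30 (SE), edgeR adjusted p = 0.0492). A peak was called there in WT 1 only, and this call was lost under library totals, RLE factors and DESeq2. Without KO 1 or without KO 2, 0 members were called, and without WT 2 the number was 10. In the authors' deposited table the same 2 regions have p-values of 0.112 and 0.0554, and each member's q-value is 1.

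**Figure D2:**
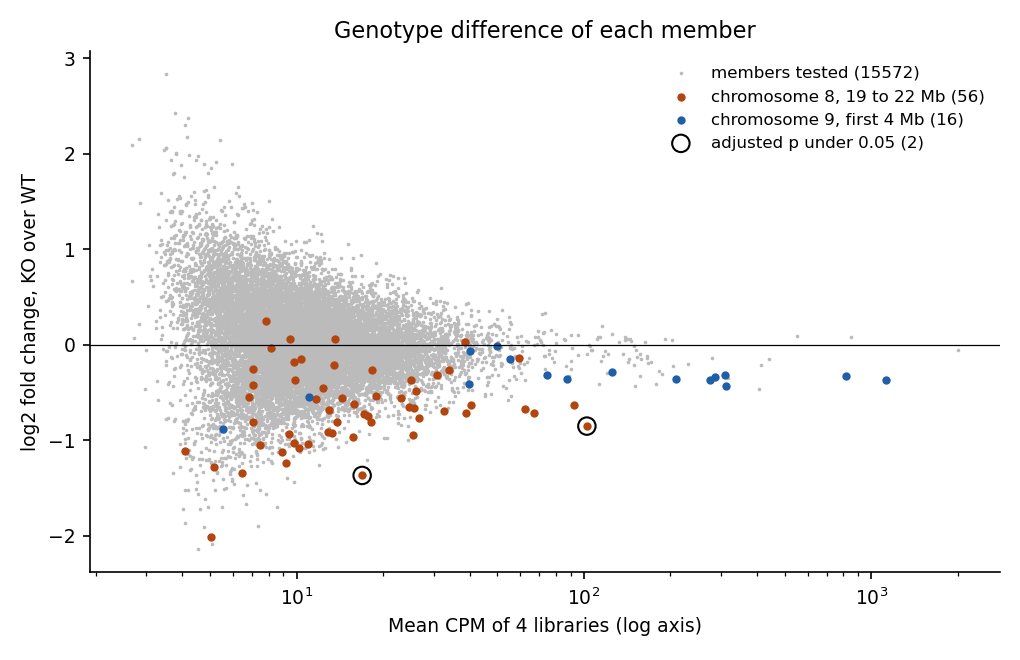
Fitted log2 fold change, KO over WT, of each tested intergenic member (vertical axis) against its mean CPM over the 4 libraries (log axis). Circles mark the 2 members with an adjusted p under 0.05, orange points the 56 members at 19 to 22 Mb of chromosome 8 and blue points the 16 members in the first 4 Mb of chromosome 9; most of both groups lie below 0.

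Below these 2, the members with the smallest p on the lower side were mostly in the same places. On chromosome 8, chr8:21056501-21057322 beside Gm56829 measured 90.2 and 77.1 CPM in WT and 55.1 and 46.5 CPM in KO (log2 fold change -0.72 ± 0.16 (SE), edgeR adjusted p = 0.0746). chr8:21129951-21130912 beside Gm21112 measured 119.6 and 106 CPM in WT and 78.5 and 66.1 CPM in KO, chr8:20181236-20182246 beside 6820431F20Rik measured 83.4 and 70.2 CPM in WT and 43.1 and 53.3 CPM in KO, and chr8:20108957-20109490 beside Potefam3a measured 42.3 and 24.6 CPM in WT and 15.4 and 19.6 CPM in KO. In all 4 the WT libraries were the higher pair and the test was not passed. chr14:3051416-3052886, near the assembled start of chromosome 14 and beside Gm9637, measured 494 and 445 CPM in WT and 329 and 352 CPM in KO. On chromosome 9, chr9:113058555-113059208 beside Gm4657 measured 27.8 and 21.4 CPM in WT and 10.97 and 10.4 CPM in KO. Outside such gene families and repeat-rich starts, chr6:72238231-72238541 lies 25670 bp upstream of Atoh8, which encodes a basic helix-loop-helix transcription factor. It measured 31.4 and 33.9 CPM in WT and 16.3 and 16.3 CPM in KO, with no overlap (log2 fold change -0.997 ± 0.24 (SE), edgeR adjusted p = 0.118), while Atoh8 RNA measured 0.722 ± 0.199 CPM over the WT libraries and 0.725 ± 0.309 CPM over the KO libraries (SD, n = 3).

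On the higher side the smallest edgeR adjusted p among members was 0.529. That member, chr4:63701302-63701907, lies 37952 bp upstream of Tnfsf15, which encodes a cytokine of the tumour necrosis factor family. It held 32 and 27 reads in the WT libraries and 89 and 65 reads in the KO libraries, or 10.3 and 9.34 CPM in WT and 21.7 and 19.3 CPM in KO. Its KO pair was above its WT pair, with a log2 fold change of 1.06 ± 0.31 (SE). chr8:81629785-81630493, 22637 bp upstream of Gab1, an adaptor of growth factor receptors, measured 14.5 and 12.4 CPM in WT and 24.9 and 23.99 CPM in KO. chr6:29516156-29516607, 8205 bp upstream of Kcp, a secreted modulator of BMP signalling, measured 13.9 and 8.99 CPM in WT and 18.04 and 26.4 CPM in KO. Both had KO as the higher pair. chr1:83097573-83097933, 3059 bp downstream of the chemokine gene Ccl20, held 5 and 10 reads in the WT libraries and 43 and 28 reads in the KO libraries. chr10:53979660-53979874 beside Man1a, which encodes a mannosidase that trims N-glycans, held 11 and 1 reads in the WT libraries and 40 and 27 reads in the KO libraries. Its WT libraries stood far apart, and WT 2 had 1 read only. chr13:101191240-101191645 beside the pseudogene Hmgb1-ps9 measured 9.37 and 6.22 CPM in WT and 14.4 and 18.96 CPM in KO. The other 4 of the 10 lay beside the predicted genes Gm32235, Gm22203, Gm8812 and Gm25687, with 10 to 23 reads in the WT libraries and 39 to 79 in the KO libraries. In all 10 the KO libraries were above the WT libraries, which the choice by p favours, and 0 passed the test. None of the 10 had a peak called in a WT library. Each thus entered the region list through a KO peak call alone, which also favours a higher KO value.

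**Figure D3:**
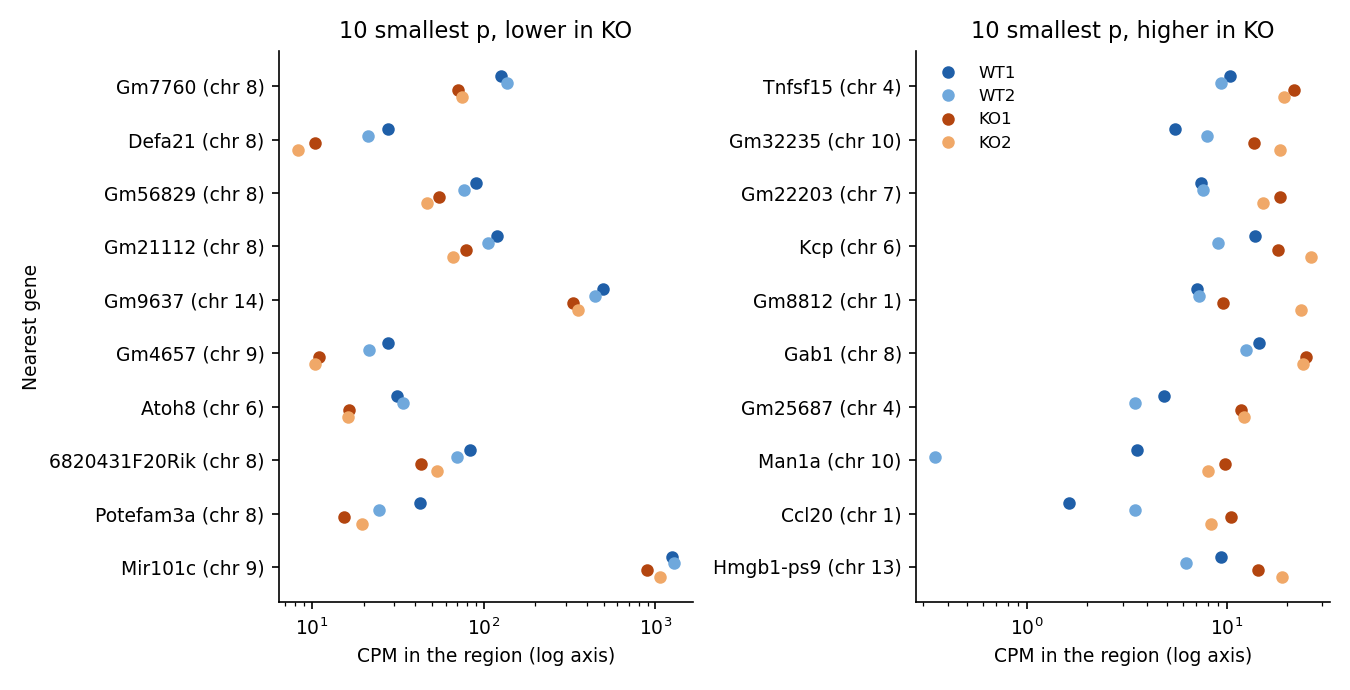
CPM in each of the 4 libraries (log axis) for the 10 members with the smallest p on the lower side (left) and on the higher side (right), named by nearest gene and chromosome, 1 point a library. The left members reach 1279.8 CPM and 6 of them are on chromosome 8, while the right members all stay under 30 CPM.

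Across all members the genotypes differed about as much as replicates did. The SD over members of the log2 CPM ratio was 0.58 between the WT libraries, 0.57 between the KO libraries and 0.56 to 0.59 between a KO and a WT library. The median log2 fold change of the members was 0.04, against 0.01 for all regions. Both KO libraries lay above both WT libraries at 2920 members (18.8%), where 16.9% of all regions did so, and below them at 2426 members (15.6%), where 17.8% of all regions did so. The median moved with the strength of the member: it was 0.46 in 889 tested members under 5 CPM, 0.12 at 5 to 10 CPM, -0.01 at 10 to 20 CPM, -0.04 at 20 to 50 CPM and -0.13 in the 62 members of 100 CPM or more. Among those 62 strongest members 46 had a negative fold change. The region list holds members with a peak in any 1 library, and the KO libraries had more peaks, as given above; the part of this in these medians was not tested.

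The intergenic members together took nearly the same share of the region reads in each library: 20.5% and 20.2% in WT and 20.6% and 20.6% in KO. The 4 libraries spanned under 1 percentage point, and the KO mean was higher by 0.232 percentage points (two-sided exact permutation p = 0.33, the smallest that 2 libraries against 2 allow). Intergenic regions beyond 50 kb held 4.77% and 4.58% in WT and 4.63% and 4.65% in KO, with overlapping genotypes. Regions within 1 kb of a TSS held 27.8% and 28.3% in WT and 27.0% and 27.3% in KO, where the KO libraries were the lower pair (exact permutation p = 0.33). With no spike-in named, a gain or loss common to all regions cannot be seen in these shares.

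The second comparison summed member reads by chromosome, for 19 autosomes, X, Y and the unplaced scaffolds. Member reads of chromosome 9 and of chromosome Y fell in KO, 2 of 22 sums or 9.09%. Chromosome 9, with 875 members, summed to 15673 and 15472 CPM in WT and 14368 and 15002 CPM in KO (log2 fold change -0.08 ± 0.02 (SE), edgeR adjusted p = 0.0228). Chromosome Y had 2 members, which summed to 280.2 and 269 CPM in WT and 230.1 and 238 CPM in KO (-0.23 ± 0.06 (SE), edgeR adjusted p = 0.0228). In both, the WT libraries were the higher pair. Both calls were lost under RLE factors, library totals, the replicate block and the 20 kb limit, and when any 1 of the 4 libraries was left out. The fit shares its estimate of spread among the 22 sums, so the Y result also rests on the spread of other chromosomes. Singly, the 2 Y members were not called (edgeR adjusted p = 0.946 and 0.909). The Y call was also lost without members in the first 4 Mb of each chromosome, a setting that removes neither Y member. The unplaced scaffolds summed to 3490.3 and 2926 CPM in WT and 2823 and 2724 CPM in KO (-0.21 ± 0.07 (SE), edgeR adjusted p = 0.0998), with KO the lower pair. Chromosome 8 had a log2 fold change of -0.05 ± 0.02 (SE). The other 17 autosomes lay between -0.03 and 0.03. None of the 22 sums rose at the adjusted or unadjusted threshold (edgeR); 4 (18.2%) were lower at an unadjusted p under 0.05.

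**Figure D4:**
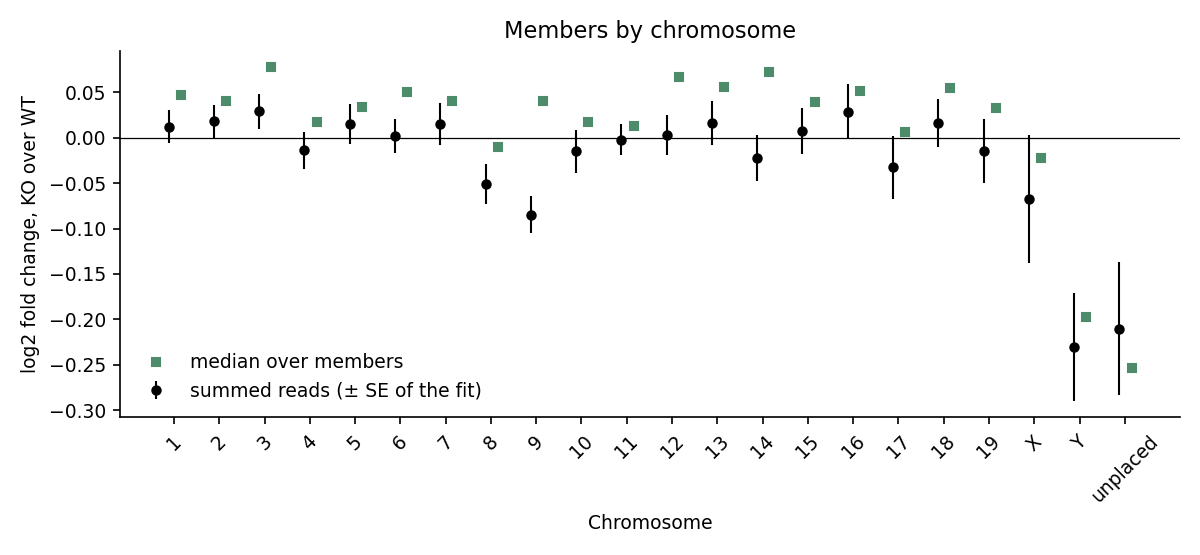
Log2 fold change, KO over WT, of the member reads summed per chromosome (circles, bars ± SE of the fit) and the median over single members (squares). The 5 lowest sums are those of Y, the unplaced scaffolds, 9, X and 8, while the squares of 18 of 19 autosomes lie above 0.

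The chromosome 9 difference sat in a small stretch. In the first 4 Mb, 16 members between 2999973 and 3259028 bp (GRCm39) summed to 4274 and 4281 CPM in WT and 3104 and 3628 CPM in KO, and all 16 had a negative fold change. These 16 held 2.08% of all member CPM in WT and 1.65% in KO. Of the 16, 15 had Mir101c as nearest gene. The other 859 members of the chromosome summed to 11398 and 11191 CPM in WT and 11264 and 11374 CPM in KO, and the fitted log2 fold change without that stretch was 0.00. This stretch, and the one on chromosome 8 below, were chosen after their values were seen and are given as descriptions. Members in the first 4 Mb of the other chromosomes numbered 145, with 88 negative fold changes, and summed to 4388 and 3766 CPM in WT and 3578 and 3544 CPM in KO. The strongest of these starts after chromosome 9 was that of chromosome 14, with 8 members at 995 and 875 CPM in WT and 677 and 716 CPM in KO. Mouse chromosomes are acrocentric, so an assembled start lies beside satellite repeats of the centromere.

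On unplaced scaffolds, 44 of 45 members had a negative fold change, with a median of -0.25. The other 82 regions there had a median of -0.34, but their summed CPM was higher in KO, at 41401 and 39804 CPM in WT and 43715 and 45469 CPM in KO, so single regions and the sum differed in sign. On chromosome Y the larger member, chrY:90749030-90750439 beside Mid1-ps1, measured 208 and 190.2 CPM in WT and 165 and 165 CPM in KO. The smaller, chrY:4036523-4036849 beside Vmn2r-ps139, measured 72.4 and 78.8 CPM in WT and 65.6 and 73.5 CPM in KO, with overlapping genotypes, so KO was the lower pair at 1 of the 2. Chromosome X had 140 members with medians of 8.24, 8.30, 8.17 and 8.29 CPM, below each autosome's library medians of 8.73 to 11.5 CPM.

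On chromosome 8, the 56 members between 19748734 and 21500587 bp had less signal in KO. They summed to 1559 and 1347 CPM in WT and 937 and 969.5 CPM in KO, with 52 negative fold changes and a median log2 fold change of -0.67. At 41 of the 56 both KO libraries lay below both WT libraries, where 17.8% of all regions did so. The stretch was chosen for such values. Both fallen members of the single-region test are among them. The 49 regions of other classes in the same stretch (promoters, introns and exons) had the same direction, with 45 negative fold changes, a median of -0.49 and sums of 1608 and 1430.2 CPM in WT and 1101 and 1112 CPM in KO. The remaining 772 members of the chromosome summed to 10236 and 10068 CPM in WT and 10195 and 10300.0 CPM in KO, with overlapping genotypes. The nearest genes of the 56 members number 20, among them the alpha-defensin gene Defa21, members of the Potefam3 family (Potefam3a, Potefam3b and Potefam3e) and many predicted genes and pseudogenes. Such families hold near-identical copies. How reads that map to several copies were placed was not given in the sources read here, so counts of single regions in this stretch and in the repeat-rich starts are uncertain, and a count there cannot be assigned to 1 copy.

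Outside the chromosome starts, the chromosome 8 stretch, Y and the scaffolds, 15368 members remained. They summed to 193548 and 190962 CPM in WT and 192530 and 194174 CPM in KO, with overlapping genotypes. Of 15308 tested by edgeR, 656 (4.29%) had an unadjusted p under 0.05. None was called, which follows from leaving out the chromosome 8 stretch that holds both called members. The places left out had lower sums in KO, so the level of the remaining sums also depends on that choice.

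The third comparison summed member reads by nearest gene. The members had 9467 nearest genes, 5704 of them with 1 member and 218 with 5 or more. A predicted or clone-style gene name stood beside 59.2% of members. By the biotype that RefSeq gives for the symbols it matched (72.0% of them), 3713 were protein-coding genes with 5781 members, 1410 pseudogenes with 2386 members and 1251 long non-coding RNA genes with 2176 members. Of 9436 sums tested, 11 fell in KO (0.117%) and 0 rose by edgeR. At an unadjusted p under 0.05, 263 were higher and 272 lower, together 5.67% of the sums. DESeq2 called 5 lower and 0 higher. Without WT 1, without KO 1 or without KO 2, 0 sums were called, and without WT 2 there were 19.

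Of the 11 genes, 8 are nearest to members of the chromosome 8 stretch: Gm56829, Defa21, Gm21112, Gm21769, Gm7760, 6820431F20Rik, Potefam3a and Gm20778. Gm56829, with the smallest p, had 13 members that summed to 339 and 278 CPM in WT and 205 and 184 CPM in KO (log2 fold change -0.67 ± 0.10 (SE), edgeR adjusted p = 1.59e-06). Defa21 had 3 members that summed to 74.02 and 62.6 CPM in WT and 32.4 and 34.1 CPM in KO (-1.04 ± 0.17 (SE), edgeR adjusted p = 5.78e-06). In both the genotypes did not overlap. The fold changes of all 8 ran from -1.04 to -0.50. The other 3 were on other chromosomes. ENSMUSG00000094915 on scaffold GL456212.1 had 5 members at 57.5 and 44.3 CPM in WT and 29.01 and 24.3 CPM in KO. Gm9637 on chromosome 14 had 4 members at 952 and 850.0 CPM in WT and 645 and 694 CPM in KO. In these 2 the KO libraries were the lower pair. Zfp992, a zinc finger gene on chromosome 4, had 3 members at 62.4 and 28.7 CPM in WT and 27.5 and 21.3 CPM in KO (-0.90 ± 0.20 (SE), edgeR adjusted p = 0.0136); WT 1 alone stood high, with WT 2 close to KO 1, and without WT 1 the log2 fold change was -0.22. Zfp992 RNA measured 0.928, 2.34 and 1.85 CPM in WT and 1.98, 1.62 and 3.03 CPM in KO and was not called.

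Of the other named genes on the lower side, Tmem125, which encodes a membrane protein, had 1 member at 212 and 136 CPM in WT and 129 and 128 CPM in KO, where WT 1 stood apart and WT 2 was close to KO. Sphk1, which makes the lipid signal sphingosine 1-phosphate, had 1 member at 15.5 and 10.7 CPM in WT and 3.66 and 4.44 CPM in KO, with no overlap. On the higher side, the 2 members of Tnfsf15 summed to 14.9 and 15.6 CPM in WT and 31.4 and 26.7 CPM in KO. The 2 members of Ccl20 summed to 6.46 and 6.57 CPM in WT and 17.3 and 14.2 CPM in KO. The 4 members of Kif20b, a kinesin needed for cell division, summed to 24.6 and 19.7 CPM in WT and 35.3 and 37.3 CPM in KO. In these 3 the KO pair was the higher one. No sum among these 5 genes passed the test (edgeR adjusted p from 0.13 to 0.38).

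Among the genes with the most members were Mir101c with 15, Lpcat1 with 9, Apba2 with 8, and Asmt, Cdc7, Cops8, Mterf1b and Ppp1r17 with 7 each. Members of Apba2, which encodes a neuronal adaptor of the amyloid precursor protein, summed to 302 and 292 CPM in WT and 307 and 291 CPM in KO. Members of Lpcat1, which remodels phosphatidylcholine, summed to 123 and 137 CPM in WT and 129.9 and 123 CPM in KO. In Apba2 and Lpcat1 the genotypes overlapped. Members of Cdc7, a kinase that starts DNA replication, summed to 77.2 and 63.97 CPM in WT and 72.4 and 82.6 CPM in KO, and those of Cops8, a subunit of the COP9 signalosome, to 78.2 and 92.7 CPM in WT and 87.5 and 75.8 CPM in KO. Both overlapped between genotypes. Members of Asmt, the last enzyme of melatonin synthesis, summed to 228 and 167 CPM in WT and 181 and 148 CPM in KO, with no call (edgeR adjusted p = 0.869). Those of Mterf1b, which encodes a mitochondrial transcription terminator, summed to 44.3 and 54.3 CPM in WT and 48.3 and 57.8 CPM in KO, and those of Ppp1r17, a phosphatase inhibitor, to 48.8 and 55.3 CPM in WT and 62.9 and 43.2 CPM in KO. The genotypes overlapped at Asmt, Mterf1b and Ppp1r17 as well. RNA of the 6 of these genes with enough RNA to test was not called (edgeR adjusted p of 0.214 for Lpcat1 and more for the others), and Asmt RNA was at 0 in all 6 libraries.

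Members beside genes of neural development were described by 14 gene lists. No member of any list was called by edgeR, against 0.00289% and 0.00433% of all regions. The neural stem and radial glia list had members at 14 of its 32 genes, 27 members in all, with a median of 14.2 CPM and a median log2 fold change of -0.11; 0 were higher and 2 lower at an unadjusted p. The strongest was chr8:85535613-85536135, 8640 bp upstream of Nfix, a transcription factor of radial glia, at 28.8 and 23.2 CPM in WT and 30.96 and 34.4 CPM in KO. chr15:8658729-8659156, 13575 bp downstream of Slc1a3, the glutamate transporter of radial glia and astrocytes, measured 32.6 and 32.5 CPM in WT and 23.9 and 26.96 CPM in KO. chr2:13614085-13614974, 29905 bp downstream of Vim, which encodes the filament protein vimentin, measured 21.01 and 29.7 CPM in WT and 20.5 and 35.8 CPM in KO. Of these, the Nfix pair was higher in KO and the Slc1a3 pair lower, without overlap and without passing the test, and in Vim replicate 2 of each genotype was the higher library.

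The intermediate progenitor and neuroblast list had members at 10 of 16 genes (15 members, 0 with an unadjusted p under 0.05). chr2:146068543-146068948 beside Insm1, a zinc finger factor of delaminating progenitors, measured 14.5 and 23.2 CPM in WT and 14.1 and 26.7 CPM in KO. chr2:71387278-71387907 beside Dlx2, a homeobox factor of interneuron progenitors, measured 18.7 and 15.6 CPM in WT and 22.4 and 18.96 CPM in KO, and chr13:51993755-51993962 beside Gadd45g, a stress-response gene of differentiating neurons, measured 19.1 and 16.9 CPM in WT and 17.5 and 13.03 CPM in KO. The genotypes overlapped at Insm1, at Dlx2 they did not, by a narrow margin, and at Gadd45g they overlapped. The neuron list had members at 5 of 19 genes (8 members, 1 higher and 0 lower at an unadjusted p). Its strongest, beside Rbfox3, which encodes the neuronal nuclear protein NeuN, measured 12.9 and 7.61 CPM in WT and 13.2 and 12.7 CPM in KO. Next came those beside Bcl11b, a factor of deep-layer neurons, at 10.99 and 10.4 CPM in WT and 8.77 and 15.1 CPM in KO, and Mapt, which encodes tau, at 12.6 and 12.8 CPM in WT and 9.51 and 7.70 CPM in KO. The genotypes overlapped at Rbfox3 and Bcl11b, and at Mapt KO was the lower pair.

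For glia, the astrocyte list had 6 members at 4 of 15 genes and the oligodendrocyte lineage list 5 members at 4 of 14, with none at an unadjusted p under 0.05 in either. chr18:82480213-82480666, 12605 bp upstream of Mbp, which encodes myelin basic protein, was the strongest member of these lists, at 43.3 and 53.9 CPM in WT and 38.5 and 47.4 CPM in KO. chr16:91062899-91063207, 3453 bp upstream of Olig1, a basic helix-loop-helix factor of the lineage, measured 18.4 and 21.1 CPM in WT and 18.3 and 19.6 CPM in KO, and the one beside Mog, a myelin glycoprotein gene, 20.4 and 24.6 CPM in WT and 22.7 and 22.5 CPM in KO. The genotypes overlapped at all 3. Mbp RNA was 1.34 ± 0.414 CPM in WT and 1.32 ± 0.487 CPM in KO, and Olig1 RNA 1852 ± 513 CPM and 1944 ± 485 CPM (SD, n = 3). In the astrocyte list, the member beside Fgfr3, a fibroblast growth factor receptor, measured 21.98 and 23.2 CPM in WT and 20.7 and 16.3 CPM in KO. The one beside Slc1a2, the main astrocyte glutamate transporter, measured 24.9 and 17.6 CPM in WT and 14.1 and 17.8 CPM in KO, and the one beside Aqp4, a water channel, 10.3 and 14.5 CPM in WT and 15.8 and 13.9 CPM in KO. KO was the lower pair at Fgfr3, and the genotypes overlapped at these members of Slc1a2 and Aqp4. Summed over its 2 members, Slc1a2 measured 37.5 and 34.6 CPM in WT and 21.4 and 29.0 CPM in KO, without overlap. That sum was not called (edgeR adjusted p = 0.809). The Fgfr3 sum was also lower in KO, while those of Aqp4 and Gja1 had log2 fold changes of 0.27 and 0.01. The median log2 fold change of the list's 6 members was -0.35. The microglia list had no member at any of its 10 genes. The endothelial and pericyte list had 4 members, of which that beside Rgs5 measured 9.37 and 6.92 CPM in WT and 15.1 and 5.92 CPM in KO, that beside Emcn 7.76 and 7.26 CPM in WT and 11.9 and 6.81 CPM in KO and that beside Tek 5.17 and 4.84 CPM in WT and 7.31 and 5.63 CPM in KO. At Tek both KO values were above both WT values. In Rgs5 and Emcn the genotypes overlapped and the KO libraries differed from each other by more than the WT libraries did. The fibroblast and meningeal list had 5 members, 1 of them lower at an unadjusted p: chr11:94819558-94820009 beside the collagen gene Col1a1, at 29.4 and 24.2 CPM in WT and 17.3 and 19.6 CPM in KO. Those beside Twist1 and Col1a2 measured 18.1 and 15.6 CPM in WT and 13.6 and 22.5 CPM in KO, and 6.46 and 14.9 CPM in WT and 7.31 and 9.48 CPM in KO, each with overlap.

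Patterning genes set the regional identity of brain progenitors. Their RNA differed between the genotypes without overlap: the forebrain list summed to 164 to 176 CPM in WT and 232 to 259.5 CPM in KO, and the diencephalon, midbrain and hindbrain list to 135 to 169 CPM in WT and 76.5 to 93.1 CPM in KO. By edgeR, 6 genes of the first list rose and 2 fell, and 0 of the second rose and 6 fell, where 1.77% of all genes tested rose and 1.66% fell. The forebrain list had 4 members at 3 of 18 genes, and the diencephalon, midbrain and hindbrain list 22 members at 10 of 22 genes, with median log2 fold changes of 0.40 and 0.04. Beside Emx1, a dorsal forebrain homeobox gene, the member measured 9.37 and 8.64 CPM in WT and 13.2 and 12.7 CPM in KO, and the second member of Dlx2, chr2:71382192-71382391, measured 10.99 and 6.57 CPM in WT and 9.02 and 8.59 CPM in KO. The Emx1 pair was higher in KO without passing the test, and at Dlx2 the genotypes overlapped. Beside Dbx1, a homeobox gene of interneuron progenitors, the member measured 21.98 and 20.1 CPM in WT and 19.99 and 21.03 CPM in KO. Beside En2, a homeobox gene of the midbrain and cerebellum, it measured 18.4 and 16.9 CPM in WT and 10.5 and 17.2 CPM in KO, and beside Tcf7l2, a Wnt-responsive factor of the thalamus, 11.3 and 13.5 CPM in WT and 14.9 and 15.7 CPM in KO. Genotypes overlapped at Dbx1 and En2, and at Tcf7l2 KO was the higher pair. In the list of Notch, Wnt, hedgehog, FGF and BMP signalling, 24 members stood at 11 of 31 genes (0 higher and 1 lower at an unadjusted p). The strongest, chr6:91322985-91323895, 18158 bp downstream of the ligand gene Wnt7a, measured 50.4 and 39.1 CPM in WT and 47.04 and 32.9 CPM in KO. That beside Dll1, a Notch ligand, measured 32.97 and 19.7 CPM in WT and 28.03 and 18.7 CPM in KO, and that beside Cdon, a hedgehog co-receptor, 22.6 and 22.5 CPM in WT and 21.7 and 17.2 CPM in KO. At Wnt7a and Dll1 the genotypes overlapped and replicate 1 was the higher library in each. At Cdon KO was the lower pair.

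In the cell cycle list, chr11:69482782-69483477, 3261 bp downstream of Trp53, which encodes p53, measured 45.2 and 39.4 CPM in WT and 27.1 and 28.7 CPM in KO. Both KO libraries lay below both WT libraries (log2 fold change -0.60 ± 0.20 (SE)), and the edgeR adjusted p was 0.704. It was 1 of the 6 members of that list, at 6 of 14 genes, and the only one with an unadjusted p under 0.05. The members beside E2f1, a factor of S-phase entry, and Cdkn1c, a kinase inhibitor, measured 29.4 and 29.05 CPM in WT and 28.5 and 27.8 CPM in KO, and 19.1 and 27.3 CPM in WT and 15.4 and 18.96 CPM in KO. Both KO values were below both WT values at E2f1, by less than 2 CPM, and at Cdkn1c. Immediate early genes had 5 members at 3 of 11 genes; that beside Egr1 at chr18:35020219-35020729 measured 23.6 and 28.4 CPM in WT and 26.8 and 23.99 CPM in KO, its neighbour chr18:35021978-35022236 measured 10.3 and 15.6 CPM in WT and 13.9 and 11.6 CPM in KO, and that beside Egr3 11.3 and 6.57 CPM in WT and 14.6 and 7.41 CPM in KO, all with overlap. In the list of Riox2 and arginine methyltransferases, 3 of 12 genes had a member and Riox2 had none. The strongest, chr8:78261722-78262713 beside Prmt9, measured 37.2 and 34.6 CPM in WT and 31.9 and 33.8 CPM in KO, and those beside Prmt5 and Prmt2, both arginine methyltransferase genes, measured 10.7 and 11.4 CPM in WT and 12.9 and 7.11 CPM in KO, and 10.3 and 9.68 CPM in WT and 10.7 and 8.29 CPM in KO. At Prmt9 KO was the lower pair, and at Prmt5 and Prmt2 the genotypes overlapped.

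The last comparison set members beside the RNA of their nearest genes. Of the 9467 nearest genes, 2963 (31.3%) had enough RNA to test, against 26.8% of all genes in the RNA table. By edgeR, 79 of them rose in KO (2.67%, against 1.77% of all genes tested) and 65 fell (2.19%, against 1.66%). The share called was 3.09% in genes with no member, 4.39% in genes with 1, 4.63% in genes with 2, 8.43% in the 249 genes with 3, 5.95% in the 84 with 4 and 5.88% in the 51 with 5 or more. Those groups also differed in RNA level, at WT medians of 7.30, 8.05, 8.65, 7.97, 10.97 and 7.59 CPM per kb of gene length, and the part of level was not tested. DESeq2, run without the count filter and so over 9452 nearest genes, called 127 higher and 123 lower (454 and 454 over all genes). The marker and patterning sums given above also differed between the RNA groups, and their part in these calls was not tested. Without WT RNA replicate 3 the counts were 24 and 12, and without KO RNA replicate 1 or 2 they were 30 and 19 or 31 and 18.

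The members' own CUT&Tag differences stood close together across the RNA classes. The 137 members beside genes whose RNA rose had a median log2 fold change of 0.01, the 111 beside genes whose RNA fell -0.05, the 4445 beside tested genes with no call 0.01 and the 10939 beside untested genes 0.05. Summed by gene, the members of the 79 genes with higher RNA had a positive fold change at 41, and those of the 65 genes with lower RNA a negative one at 34. None of these 144 genes had a called sum by edgeR. Among them 1 higher and 2 lower sums had an unadjusted p under 0.05, where 535 of all 9436 sums tested (5.67%) did. Across 2956 genes with both values, Pearson's r between the log2 fold change of summed member reads and that of RNA was 0.01; genes are not independent and share the libraries, so this is a description.

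**Figure D5:**
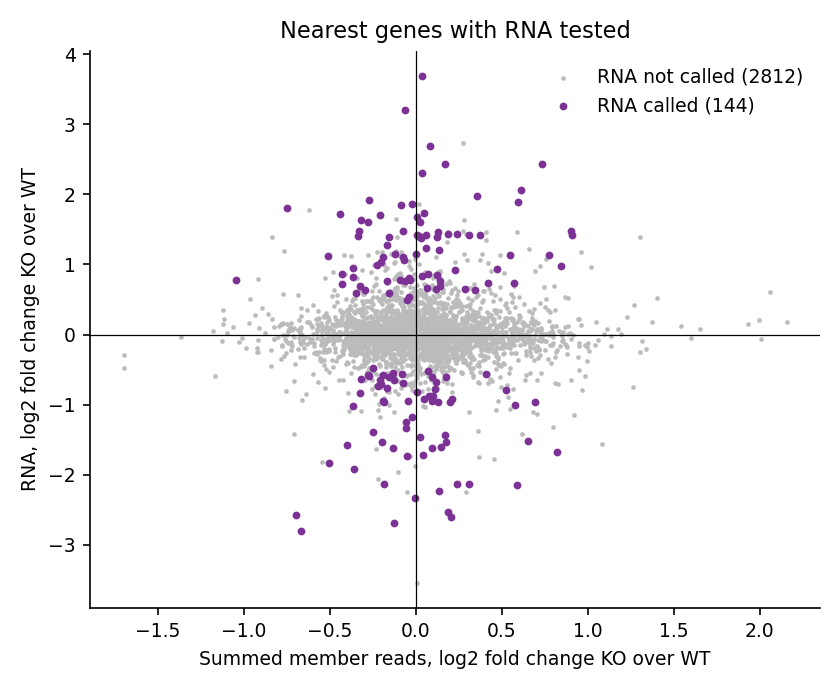
Log2 fold change, KO over WT, of RNA (vertical axis) against that of the summed member reads (horizontal axis) for 2956 nearest genes, 1 point a gene; purple points are the 144 genes whose RNA was called. The purple points spread to both sides of 0 on the horizontal axis at high and at low RNA change.

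Among genes whose RNA was called, 29 had 3 or more members; the ones named here were chosen after their values were seen. Sparc, which encodes a secreted matrix protein of radial glia, had 6 members that summed to 95.3 and 94.1 CPM in WT and 82.1 and 86.8 CPM in KO, the lower pair in KO without a call (-0.17 ± 0.13 (SE)), while its RNA rose, at 207, 195 and 188 CPM in WT and 341, 356 and 306 CPM in KO (log2 fold change 0.77 ± 0.10 (SE), edgeR adjusted p = 0.0073). Eya2, a transcriptional coactivator, had 6 members at 60.4 and 60.5 CPM in WT and 55.8 and 70.8 CPM in KO with overlap, and its RNA rose at 3.84, 2.30 and 3.35 CPM in WT and 7.46, 8.85 and 5.95 CPM in KO. Kcnk2, a potassium channel gene, had 3 members at 33.3 and 26.3 CPM in WT and 24.1 and 25.2 CPM in KO, and its RNA rose from 12.02 ± 0.762 CPM to 36.4 ± 1.18 CPM (SD, n = 3). At Kcnk2 KO was the lower pair, and in none of the 3 were both KO sums above both WT sums. Car3, a carbonic anhydrase gene, had 3 members at 31.03 and 27.3 CPM in WT and 30.7 and 29.3 CPM in KO, with overlap, while its RNA fell from 56.6 ± 7.19 CPM to 17.3 ± 0.318 CPM (SD, n = 3). Slc38a1, a glutamine transporter gene, had 3 members at 60.4 and 59.5 CPM in WT and 67.8 and 63.4 CPM in KO and RNA that fell from 159 ± 18.2 CPM to 81.1 ± 3.22 CPM. Members of Slc38a1 were the higher pair in KO, within the error of the fit. Others of the 29 had member sums on the side of their RNA, also without a call. Gpr37l1, with higher RNA in KO, had sums of 63.7 and 59.1 CPM in WT and 64.1 and 64.9 CPM in KO. Tnr and Gsap, with lower RNA, had 27.8 and 33.9 CPM and 37.2 and 39.4 CPM in WT. Their KO sums were 24.4 and 24.9 CPM and 34.4 and 32.9 CPM. At Apln and Bhlhe41 the KO pair lay on the side opposite to the RNA.

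Among the genes named for their members, called RNA was found for Cdon, En2, Vim, Slc1a3, Insm1, Bcl11b and Twist1. Cdon RNA rose, at 15.6, 16.7 and 17.2 CPM in WT and 53.3, 48.3 and 58.99 CPM in KO, and En2 RNA fell, at 10.96, 6.45 and 9.36 CPM in WT and 2.77, 2.82 and 2.45 CPM in KO; both calls held in each alternative run. Vim RNA rose, at 2239, 1903 and 1819.9 CPM in WT and 3283, 3629 and 2736 CPM in KO. Slc1a3 RNA fell, at 2230.1, 2376 and 2387 CPM in WT and 1680.0, 1584 and 1781 CPM in KO, and its 4 members summed to 88.2 and 75.04 CPM in WT and 66.8 and 70.5 CPM in KO. Insm1, Bcl11b and Twist1 RNA rose from levels under 1 CPM in WT. The RNA calls of all but Cdon and En2 among these 7 were lost without some single libraries. Of the 144 called genes, the 3 with an unadjusted p under 0.05 for their summed members each had 1 member. Over all gene sums 5.67% had such a p, so these 3 are given as descriptions. The Nefl member measured 5.82 and 6.57 CPM in WT and 11.5 and 11.8 CPM in KO, and RNA of Nefl, a neurofilament gene, rose at 1.64, 1.36 and 1.35 CPM in WT and 3.60, 4.28 and 3.77 CPM in KO. The Muc2 member measured 17.5 and 22.5 CPM in WT and 13.4 and 11.6 CPM in KO, and RNA of Muc2, a secreted mucin gene, fell at 7.13, 2.88 and 4.70 CPM in WT and 0.988, 0.789 and 0.350 CPM in KO. The Rnf180 member measured 12.3 and 13.1 CPM in WT and 6.34 and 5.92 CPM in KO, and RNA of Rnf180, a ubiquitin ligase gene, rose at 21.5, 24.8 and 24.7 CPM in WT and 40.00, 40.3 and 41.8 CPM in KO. Member and RNA differences had the same sign in Nefl and Muc2 and opposite signs in Rnf180.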

How the data were processed

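CUT&Tag was measured in 2 WT and 2 KO libraries and RNA in 3 and 3, grouped by their titles. HISAT2, StringTie and the GRCm39 build stand in the submitters' processing notes. Antibody, peak caller, counting tool and the handling of reads with several matches were not given in the sources read here. Per the file headers, the CUT&Tag table holds whole-number read counts of merged regions, the authors' peak calls and annotation, RPM values, and the authors' log2 fold change, p-value and q-value. Its deposited RPM equals the count plus 1, scaled to a library total, which was used only to recover that total (55710272, 47732697, 66934404 and 55309735 reads in WT 1, WT 2, KO 1 and KO 2). The deposited RNA table holds expected counts per gene, per the file headers and values, and these were rounded.

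All 69418 regions and all 57180 genes were fitted with edgeR 4.0.16 (limma 3.58.1, R 4.3.3): TMM scaling, filterByExpr with a minimum count of 10, robust quasi-likelihood test, Benjamini-Hochberg adjustment over every tested row, threshold 0.05. The chromosome sums used the same fit without robust dispersion, and sums by chromosome or gene kept the library sizes and TMM factors of the region fit. Each SE was taken as the absolute log2 fold change over the root of F. The biological coefficient of variation was 18.9% for regions and 17.9% for RNA. Symbols came from the RNA table by Ensembl ID (15611 of 15632 members). The fits were also run on simulated data with known changes. That simulation gave all rows of a fit the same dispersion, so it does not measure how reliable the calls here are. DESeq2 1.42.0 and the other alternatives are reported at the end.

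The members and gene lists were chosen with earlier results of these data known. Named regions were the called ones, the 10 of smallest p on either side, the 10 with the highest mean CPM and up to 3 of the highest mean CPM per list. Named genes were the 10 with the most members and the 5 of smallest p on either side, predicted and clone-named genes left out; called sums are named too, and others are marked as chosen after their values were seen. Some genes that the rule names are not reported here. No sequence of a region is printed, since no genome of the build was used here.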

Additional observations from a re-analysis of the deposited data

How the results depend on the processing

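The numbers of calls moved with the settings, while no setting gave a call on the higher side for single members, chromosome sums or gene sums. For single members the 2 lower calls became 1 under RLE factors, library totals, DESeq2 and peaks called in at least 2 libraries, 4 with the replicate block, and 0 to 10 with each library left out. The number of lower chromosome sums, 2, became 0 under RLE factors, library totals, the replicate block, the 20 kb limit and without the first 4 Mb of each chromosome, 1 with robust dispersion, and 0 to 1 with each library left out; neither chromosome 9 nor Y was called without any of the 4 libraries, and the 1 call without WT 2 was that of the unplaced scaffolds. The 11 lower gene sums became 3 under library totals, 5 under DESeq2, 2 with peaks in at least 2 libraries, 4 under the 20 kb limit, 3 without the chromosome 8 stretch, and 0 to 19 with each library left out. RNA calls, 79 higher and 65 lower, became 39 and 27 with the replicate block, 127 and 123 under DESeq2 (over 9452 rather than 2963 nearest genes), and 24 to 78 and 12 to 58 with each library left out. The share difference stayed positive, at 0.0589 to 0.404 percentage points with each library left out, 0.108 under the 20 kb limit, 0.293 without the 10 members with the most reads and 0.0563 as a share of library totals. Omission of the first 4 Mb, the chromosome 8 stretch and robust dispersion for chromosomes were chosen after seeing the data; the cause of each change above, other than fewer members or libraries, was not tested.

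Replicate numbers did not pair the libraries: deviations of same-numbered libraries correlated at 0.02 in CUT&Tag and at 0.55, -0.47 and 0.30 in RNA, where not every library correlated best with its own number. In RNA, WT 1 correlated at 0.55 with KO 1, at 0.60 with KO 2 and at -0.77 with KO 3. WT 2 correlated at -0.50, -0.47 and 0.65 with KO 1, KO 2 and KO 3, and WT 3 at -0.15, -0.29 and 0.30. The RNA libraries thus shared a variation that crosses genotype, and its part in the RNA calls and marker sums was not tested. The replicate block raised the member calls from 2 to 4 and gave 11 gene sums, as without it.

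Some differences changed sign, and among them only that of chromosome 9 had been called. Many were near 0 but not all, with main values of 0.39 for Rgs5, 0.33 for Emcn and -0.34 for Col1a2. Under library totals log2 fold changes became 0.035 for the strongest member beside Gm36684, 0.012 for Olig1, 0.041 for Dbx1, 0.025 for E2f1, 0.047 and 0.054 for Egr1, 0.011 for Prmt2, 0.031 and 0.012 for the sums of Lpcat1 and Cops8, and 0.025 for chromosome 8. With peaks in at least 2 libraries they became 0.016 for Gm36684, 0.0055 for Olig1, 0.0302 for Dbx1, 0.017 for E2f1, 0.044 and 0.056 for Egr1, and 0.0304, -0.23 and -0.103 for the sums of Cops8, Mterf1b and Ppp1r17. The 20 kb limit gave 0.028 and -0.045 for Cops8 and Mterf1b, DESeq2 gave -0.017 for Apba2, and both other count filters gave -0.00028 for the second Dlx2 member. Chromosome 8 without its stretch had 0.013 and chromosome 9 without its start 0.0031. With each library left out, sign changed for the members beside Gm36684 (-0.295 to 0.25), Gm11668 (-0.033 to 0.197), Vim (-0.31 to 0.501), Insm1 (-0.41 to 0.504), Bcl11b (-0.28 to 0.498), Mog (-0.12 to 0.15), Olig1 (-0.15 to 0.037), Rgs5 (-0.46 to 0.88), Emcn (-0.14 to 0.67), Twist1 (-0.304 to 0.42), Col1a2 (-0.83 to 0.37), Dlx2 (-0.32 to 0.43), Dbx1 (-0.100 to 0.035), Wnt7a (-0.45 to 0.069), Dll1 (-0.502 to 0.26), Egr1 (-0.15 to 0.11), Egr1 (-0.28 to 0.304), Egr3 (-0.28 to 0.76), Prmt5 (-0.63 to 0.23), Prmt2 (-0.27 to 0.097), and for the sums of Lpcat1 (-0.11 to 0.036), Apba2 (-0.029 to 0.049), Cops8 (-0.17 to 0.066), Mterf1b (-0.035 to 0.26), Ppp1r17 (-0.27 to 0.27).

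The median member held 29 to 42 reads a library, which with 2 libraries against 2 limits how small a difference can be called. Where a left-out CUT&Tag library leaves 1 in its group, the fit assumes that it varies like the other group.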
